A study of Drosophila melanogaster with 6 samples.

Results

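The 10 genes described here encode the cyclins, the kinase and phosphatases that start mitosis, and the activators of the ligase that ends it: CycA, CycB, CycB3, CycE, Cdk1, stg, twe, polo, fzy and fzr. They were taken by name from the deposited table of 17612 genes, in which each of the 10 was found by an exact match of its dm6 coordinates to a RefSeq gene. All 10 passed the filter on low counts that left 11764 genes for testing. In the Isha RIP group, 3 libraries were made from RNA bound to beads carrying rabbit antiserum Isha-Rb94 against the protein Isha, after preclearing with preimmune serum (RNA immunoprecipitation followed by sequencing, RIP-seq). In the input group, 3 libraries were made with no antibody. Both groups came from nuclear extract of wild-type Oregon R fruit fly embryos (Drosophila melanogaster) of mixed stages, 0 to 24 h old, with 12 mg of extract used for each immunoprecipitation. The series asks which transcripts are recovered with Isha. No mock immunoprecipitation was analysed here, and every difference below is one between Isha RIP and input.

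Cyclins are regulatory subunits that switch on cyclin-dependent kinases (Cdks) and are then destroyed, which gives the cell cycle its direction. A cyclin bound to Cdk1 drives mitosis once a Cdc25 phosphatase has removed inhibitory phosphates from the kinase, and the anaphase-promoting complex (APC/C), a ubiquitin ligase, ends mitosis by marking the mitotic cyclins for degradation. The fly embryo begins with rapid synchronous nuclear divisions run on maternal RNA. After cellularisation, transcription of stg in patterned domains times each further mitosis, and many tissues later stop dividing or replicate their DNA without mitosis.

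The libraries held 8386414 to 14342543 counts in Isha RIP and 29344529 to 31680173 in input. Levels are given as CPM, counts scaled by the library total and a TMM factor (a composition correction). Lists of marker genes bore out embryonic material: the 7 patterning markers summed to 432 to 487 CPM in Isha RIP and 432 to 467 CPM in input, while 7 adult yolk protein, chorion and larval glue genes summed to 2.96 to 8.24 CPM in Isha RIP and 4.89 to 6.73 CPM in input, and the testis genes dj, Mst87F and Mst98Ca had 0 counts in every RIP library and summed to at most 0.159 CPM in an input library. A count of 0 allows up to 3 counts, which is 0.208 to 0.355 CPM in a RIP library. Of all tested genes 27.0% were called higher and 30.4% lower (edgeR). Neuron markers were higher in Isha RIP in 4 of 4 cases, summing to 1233 to 1313 CPM in Isha RIP and 675 to 720 CPM in input. Of 3 muscle markers 1 was higher and 2 were lower, with sums of 5834 to 6129 CPM in Isha RIP and 7180 to 7375 CPM in input. Of 6 neural stem cell markers 1 was higher and 3 were lower, with sums of 423 to 442 CPM in Isha RIP and 469 to 486 CPM in input. Of 7 germ cell and ovary markers 1 was lower and 6 did not pass. The part of these cell types in the results below was not tested. In whole-embryo extract, a level does not tell how many cells held a transcript from how much each held. Below, rose and fell mean more or less in Isha RIP than in input, not a change in expression.

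Among the 10 genes, CycA, CycB3 and polo rose in Isha RIP, CycB, stg, fzy and fzr fell, and CycE, Cdk1 and twe did not pass the test. All changes were less than 2-fold. The 3 that rose compare with 27.0% of all tested genes called higher, and the 4 that fell with 30.4% called lower (edgeR quasi-likelihood test, adjusted p under 0.05). The 7 of 10 called in either direction compare with 57.4% of all tested genes, so the shares called lie near the background. The median log2 fold change was -0.08 for the 10 genes and -0.05 for all tested genes. In 8 of the 10 genes the groups' CPM ranges were apart (3 higher and 5 lower in Isha RIP), against 64.0% of all tested genes (30.0% higher and 34.0% lower). The sum over the 10 genes was 1483 to 1585 CPM in Isha RIP and 1481 to 1527 CPM in input, and these ranges overlap. The genes thus differed in direction among themselves, with little difference in their sum.

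**Figure D1:**
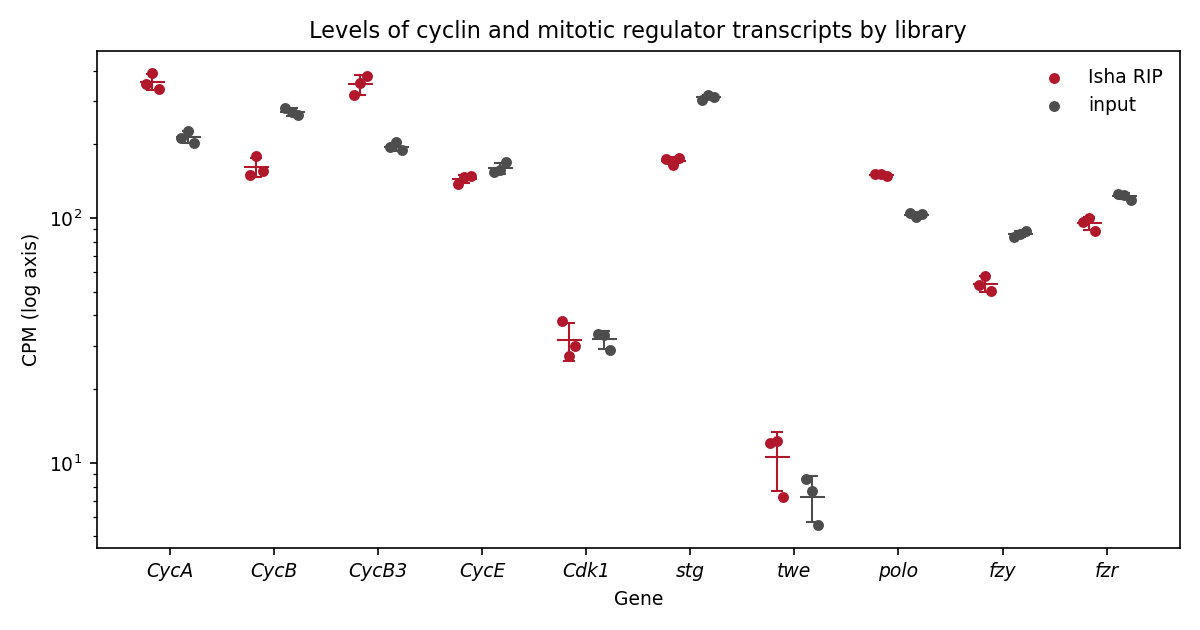
Level of each of the 10 transcripts in CPM (log axis) in the 3 Isha RIP libraries (red) and the 3 input libraries (grey); horizontal bars are means and vertical bars are SD. The points of the groups are apart for CycA, CycB, CycB3, CycE, stg, polo, fzy and fzr and overlap for Cdk1 and twe.

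Of the mitotic cyclins, CycA and CycB3 rose with Isha and CycB fell. CycA, which is needed to enter mitosis in the cellularised embryo, was measured at 353, 390 and 337 CPM in Isha RIP and at 212, 227 and 203 CPM in input. Its mean was 359.9 ± 27.2 CPM in Isha RIP and 214 ± 12.1 CPM in input (SD, n = 3 each), with every RIP library above every input library. The log2 fold change was 0.75 ± 0.060 (SE; edgeR adjusted p = 2.57e-10), or 1.68-fold. In dm6 the gene (FBgn0000404) occupies chromosome 3L, minus strand, from 11826719 to 11833578.

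CycB3, a B-type cyclin that acts late in mitosis and promotes anaphase, had 318, 355 and 381 CPM in Isha RIP and 195, 204 and 189 CPM in input. Its lowest RIP library stood well above its highest input library. The means were 351 ± 31.9 CPM in Isha RIP and 196 ± 7.40 CPM in input (SD, n = 3 each). At a log2 fold change of 0.84 ± 0.061 (SE; edgeR adjusted p = 4.94e-11), or 1.80-fold, it was the highest of the 10 and lay at percentile 85.4 of all tested genes. CycB3 (FBgn0015625) occupies 3R, minus strand, from 24867934 to 24870816, and its listed exons fill this whole span.

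CycB, the other B-type partner of Cdk1, whose RNA gathers in the germ cell precursors, went the other way. It had 150.4, 179 and 155 CPM in Isha RIP and 282, 270.0 and 263 CPM in input. All 3 RIP libraries were below all 3 input libraries. The means were 161 ± 15.04 CPM in Isha RIP and 272 ± 9.65 CPM in input (SD, n = 3 each), and the log2 fold change was -0.75 ± 0.065 (SE; edgeR adjusted p = 8.18e-10). The size of this fall, 1.69-fold, was close to that of the rise of CycA. CycB (FBgn0000405) occupies 2R, minus strand, from 22803521 to 22806948.

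CycE, which with Cdk2 starts DNA replication and also runs endocycles, was at 138, 148 and 148 CPM in Isha RIP and at 154, 157 and 169 CPM in input. The groups did not overlap, but the gap between them was small. The means of CycE were 145 ± 5.80 CPM in Isha RIP and 159.8 ± 7.88 CPM in input (SD, n = 3 each), and its log2 fold change of -0.14 ± 0.066 (SE) did not pass (edgeR adjusted p = 0.068). It passed with a gene length offset, at -0.29 (edgeR adjusted p = 0.000863), and with upper-quartile scaling, at -0.19 (edgeR adjusted p = 0.0194). The median of all tested genes moved by 0.10 with the offset and by -0.042 with upper-quartile scaling. CycE (FBgn0010382) occupies 2L, minus strand, from 15727581 to 15748150, and asRNA:CR44866 and lncRNA:CR44974 on the opposite strand overlap 150 and 98 bases of its exons. The first of these had 0 counts in all 6 libraries and the second 0 to 13 counts in Isha RIP and 0 to 20 in input, against 1217 to 2140 counts of CycE in Isha RIP and 4564 to 5314 in input.

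Cdk1, the kinase that the mitotic cyclins activate, showed no difference beyond its spread. It had 37.96, 27.2 and 30.0 CPM in Isha RIP and 33.6, 33.4 and 28.9 CPM in input, and the input values lay inside the RIP range. Means were 31.7 ± 5.57 CPM in Isha RIP and 31.95 ± 2.67 CPM in input (SD, n = 3 each). The log2 fold change of -0.01 ± 0.14 (SE) had an adjusted p of 0.953 (edgeR), and its sign turned under 11 of 17 alternatives. Cdk1 (FBgn0004106) occupies 2L, minus strand, from 10384739 to 10386262, and with 1082 bases its summed exons are the shortest of the 10.

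Of the Cdc25 phosphatases, stg fell and twe did not pass. stg (string), whose zygotic transcription times the mitoses after cellularisation, fell to 173, 165 and 176 CPM in Isha RIP, against 305, 318 and 312 CPM in input. Its means were 171 ± 5.40 CPM in Isha RIP and 311 ± 6.41 CPM in input (SD, n = 3 each), a spread within each group far smaller than the gap between them. With a log2 fold change of -0.86 ± 0.054 (SE; edgeR adjusted p = 4.15e-12), or 1.81-fold, stg was the lowest of the 10 genes, at percentile 19.0 of all tested genes. stg (FBgn0003525) occupies 3R, minus strand, from 29251826 to 29255800.

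twe (twine), a Cdc25 phosphatase that acts in meiosis and in the maternally driven early divisions, was the least abundant of the 10. It had 12.0, 12.3 and 7.27 CPM in Isha RIP and 8.60, 7.65 and 5.56 CPM in input, from 104 to 106 counts in Isha RIP and 175 to 267 in input. The third RIP library lay within the input range and the other two lay above it. The log2 fold change of twe was 0.52 ± 0.26 (SE) and did not pass (edgeR adjusted p = 0.0985). Without Isha RIP replicate 3 it was 0.73 and passed (edgeR adjusted p = 0.0231), and it also passed with a gene length offset, at 0.67 (edgeR adjusted p = 0.0361). twe (FBgn0002673) occupies 2L, minus strand, from 16259414 to 16261877. EndoGI on the opposite strand overlaps 98 bases of its exons; that gene was at 17.2 ± 3.34 CPM in Isha RIP and 14.1 ± 1.91 CPM in input (SD, n = 3 each) and did not pass (edgeR adjusted p = 0.208).

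polo encodes the founding Polo-like kinase, which acts at centrosomes, kinetochores and the cleavage furrow and helps to activate Cdk1. It rose to 151, 151 and 149 CPM in Isha RIP, against 105, 101 and 104 CPM in input. The means were 150.5 ± 1.24 CPM in Isha RIP and 103 ± 2.36 CPM in input (SD, n = 3 each), with no overlap and with the narrowest relative spread in RIP of the 10 genes (a coefficient of variation of 0.826%). The log2 fold change was 0.54 ± 0.066 (SE; edgeR adjusted p = 2.44e-07), a 1.46-fold difference. polo (FBgn0003124) occupies 3L, plus strand, from 20309654 to 20313466.

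Both activators of the APC/C fell. fzy (fizzy), the Cdc20 protein that turns the APC/C on at metaphase, had 53.3, 58.1 and 50.4 CPM in Isha RIP and 83.8, 85.9 and 88.2 CPM in input. All RIP libraries lay below all input libraries, at means of 53.9 ± 3.88 CPM in Isha RIP and 85.9 ± 2.2 CPM in input (SD, n = 3 each). The log2 fold change was -0.68 ± 0.090 (SE; edgeR adjusted p = 8.68e-07). fzy (FBgn0001086) occupies 2L, plus strand, from 16310956 to 16313097, and 62 bases of its exons overlap those of cact on the opposite strand. cact, which encodes the inhibitor of the transcription factor Dorsal, rose at a log2 fold change of 0.84 (edgeR adjusted p = 1.51e-11), the direction opposite to that of fzy.

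fzr (fizzy-related), the Cdh1 protein that keeps the APC/C active after mitosis and is needed when cells leave the division cycle, had 96.0, 100.3 and 88.9 CPM in Isha RIP and 125, 125 and 119 CPM in input. The groups did not overlap. Means were 95.05 ± 5.76 CPM in Isha RIP and 123 ± 3.62 CPM in input (SD, n = 3 each), and the log2 fold change of -0.37 ± 0.074 (SE; edgeR adjusted p = 0.000152) was the smallest of the called changes. fzr (FBgn0262699) occupies the X chromosome, minus strand, from 4667290 to 4679537.

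**Figure D2:**
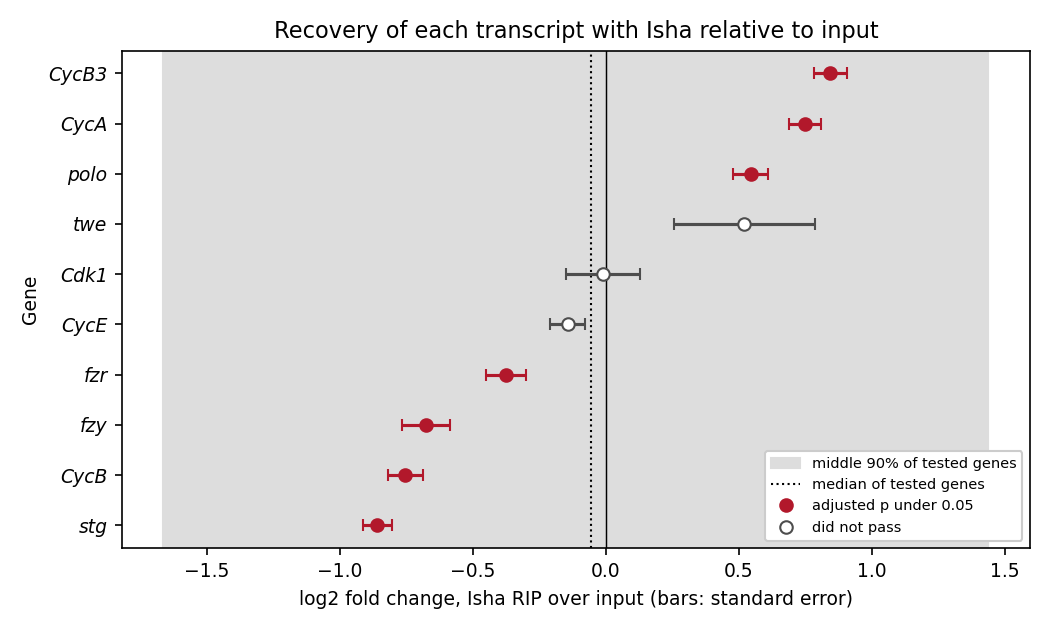
Log2 fold change of Isha RIP over input for each of the 10 genes, ordered by size, with bars of 1 standard error. Filled points passed an adjusted p under 0.05; the shaded span from -1.66 to 1.44 holds the middle 90% of all tested genes, and all 10 genes lie inside it, from stg at -0.86 to CycB3 at 0.84.

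When the test was set against a 1.5-fold change, 4 of the 10 genes passed, namely CycB3 and CycA above it and stg and CycB below it (edgeR adjusted p = 0.000228, 0.00693, 3.46e-05 and 0.00881). Of all tested genes 25.9% passed that test, 11.4% upwards and 14.5% downwards. The changes of polo, fzy and fzr did not exceed 1.5-fold beyond their error (edgeR adjusted p = 0.820, 0.168 and 1).

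The make-up of the 10 transcripts therefore differed between the groups. CycA and CycB3 together took 45.2%, 47.0% and 47.2% of their summed CPM in the Isha RIP libraries and 27.1%, 28.2% and 26.5% in the input libraries. CycB and stg together took 21.8%, 21.7% and 21.7% in Isha RIP and 39.0%, 38.5% and 38.8% in input. These shares use the libraries' own values and do not depend on the scaling between libraries. The genes were grouped as the 2 of highest and the 2 of lowest log2 fold change among the 10. Their shares therefore restate the calls above and add no separate support.

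**Figure D3:**
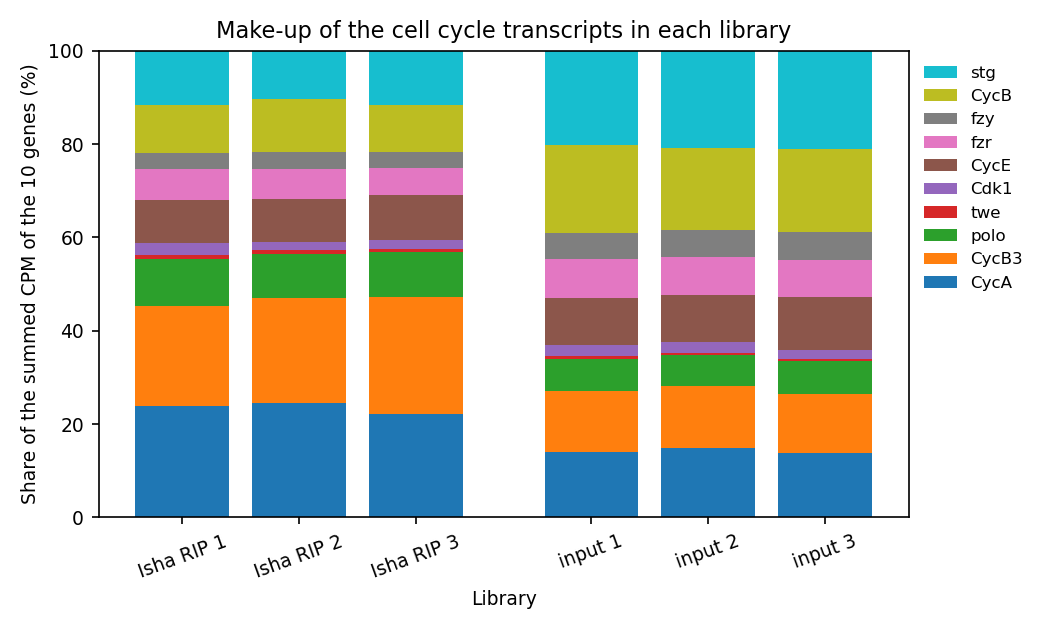
Share of each gene in the summed CPM of the 10 genes (vertical axis, %) in each Isha RIP library (left) and each input library (right). CycA and CycB3, at the bottom, take 45.2% to 47.2% of each RIP library and 26.5% to 28.2% of each input library; CycB and stg, at the top, take 21.7% to 21.8% of each RIP library and 38.5% to 39.0% of each input library.

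Ratios of counts within a library, which need no scaling, were compared for 6 pairs of related genes. CycA was counted 2.35, 2.18 and 2.17 times as often as CycB in the Isha RIP libraries and 0.751, 0.841 and 0.772 times as often in the input libraries. For CycB3 over CycB the ratios were 2.11, 1.99 and 2.45 in Isha RIP and 0.691, 0.754 and 0.717 in input. Both A-type and late B-type cyclin reads thus outnumbered those of CycB in every RIP library and in no input library. The ratio of CycA to CycB was 2.83 times as high in Isha RIP as in input, and that of CycB3 to CycB 3.02 times as high.

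The ratio of stg to twe was 14.4, 13.4 and 24.0 in Isha RIP and 35.4, 41.4 and 55.9 in input. It was 2.61 times as high in input as in Isha RIP, and twe, the denominator, had at most 106 counts in a RIP library and 267 in an input library. The ratio of fzy to fzr was 0.555, 0.579 and 0.567 in Isha RIP and 0.667, 0.689 and 0.742 in input, so the APC/C activators, which fell together, differed by 1.23-fold in how far. CycE over CycA was 0.391, 0.379 and 0.440 in Isha RIP and 0.726, 0.690 and 0.831 in input. CycB over Cdk1 was 3.96, 6.55 and 5.17 in Isha RIP and 8.41, 8.07 and 9.12 in input. In each of the 6 pairs the groups did not overlap, and the exact two-sided permutation test gave p = 0.1, the smallest that 3 libraries against 3 allow, also after Benjamini-Hochberg adjustment over the 6 pairs (0.1). None of these differences could therefore pass at 0.05. The ratios use the same counts as the calls above, and CycA and CycB each recur across pairs. Ratios of this kind therefore restate those calls and add no separate support. Among single tested genes the groups were already apart in 64.0%, and the share among other pairs of genes was not computed.

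**Figure D4:**
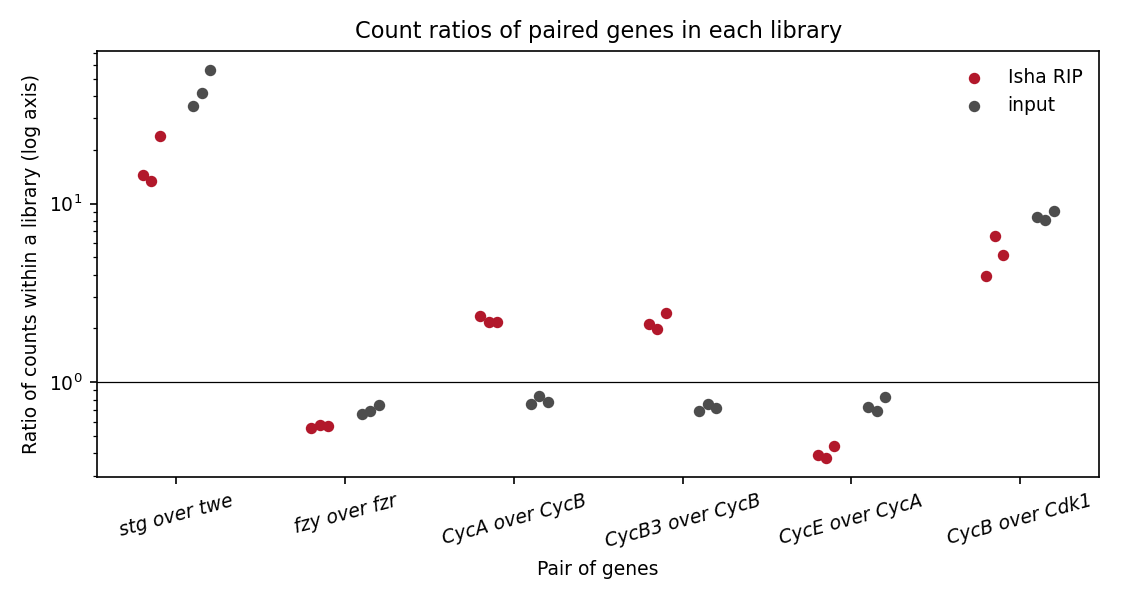
Ratio of the raw counts of 2 genes within each library (log axis) for 6 pairs, with Isha RIP libraries in red and input libraries in grey and a line at equal counts. CycA over CycB and CycB3 over CycB lie above the line in Isha RIP (1.99 to 2.45) and below it in input (0.691 to 0.841).

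Levels of different genes were compared per kilobase of summed exon length. In Isha RIP the highest were CycA at 123 ± 9.32 and CycB3 at 122 ± 11.1 CPM per kb (SD, n = 3 each), whose libraries overlapped. In input the highest was stg at 102 ± 2.09 CPM per kb, followed by CycB at 89.2 ± 3.17, CycA at 73.4 ± 4.13 and CycB3 at 67.9 ± 2.57, of which only CycA and CycB3 overlapped. The order of these 4 genes thus differed between the groups. Below CycB3 in Isha RIP came stg, CycB and polo, at 56.0, 53.0 and 50.5 CPM per kb, where neighbours overlapped. They were followed by fzr, Cdk1, CycE and fzy, between 34.1 and 27.0 CPM per kb, again with overlap between neighbours, and by twe at 4.42. In input, fzr and fzy at 44.1 and 43.1 CPM per kb overlapped, polo stood apart at 34.6, CycE and Cdk1 at 31.7 and 29.5 overlapped, and twe was last at 3.06. Among tested protein-coding genes, the input level per kb of stg lay at percentile 94.7, that of Cdk1 at 77.6 and that of twe at 19.0.

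The bases of the gene span outside listed exons numbered 0 for CycB3, 833 for polo and 3941 for CycA, which rose, and 146 for fzy, 381 for CycB, 911 for stg and 9459 for fzr, which fell. They numbered 15523 for CycE, 442 for Cdk1 and 85 for twe, which did not pass. Whether these bases bear on the changes was not tested. Summed exon lengths were 2883 bases for CycB3 and 3064 for stg, the genes at the ends of the order. Of the 10 genes 7 have summed exons of 2000 to 4000 bases, a class in which 3317 coding genes had a median log2 fold change of -0.08. Over all coding genes the median moved with exon length: it was -0.22 up to 1000 bases, -0.30 from 1000 to 2000 bases, the class of fzy and Cdk1, and 0.21 above 4000 bases, the class of CycE. With a gene length offset the 7 called genes kept their calls and CycE and twe also passed. The genes lie on 2L (4), 3L (2), 3R (2), 2R (1) and X (1).

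Other cell cycle genes were read from 9 lists by role. Among their 99 tested genes were 36 that rose and 33 that fell (edgeR), and the median log2 fold change was 0.06, against 27.0% higher, 30.4% lower and a median of -0.05 over all tested genes.

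Of 16 other cyclins, Cdks and direct partners, 4 rose and 6 fell, at a median log2 fold change of 0.16. Cdk4, the kinase of growth-regulated cycling, rose to 98.2 ± 4.56 CPM in Isha RIP, against 45.2 ± 3.37 CPM in input (SD, n = 3 each; edgeR adjusted p = 3.12e-10). Cks30A, a small subunit that binds Cdk1 and acts in the female germline, was at 35.9 ± 3.43 CPM in Isha RIP and 14.5 ± 1.29 CPM in input (edgeR adjusted p = 6.47e-08). Cdk2, the partner of CycE, fell, at 44.3 ± 3.68 CPM in Isha RIP and 64.2 ± 2.26 CPM in input (edgeR adjusted p = 9.73e-05), and CycC, a Mediator cyclin, fell by 1.34 on the log2 scale.

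Of 13 regulators of Cdk1 entry and its opposing phosphatases, 8 rose and 3 fell, at a median log2 fold change of 0.46. The largest rise in this list was that of Z600, named after its values were seen, at 2.59 (edgeR adjusted p = 2.90e-11). Exons of Z600 overlap 2 other genes. Pp1-87B, the main catalytic subunit of protein phosphatase 1, was at 468 ± 17.8 CPM in Isha RIP and 196 ± 4.15 CPM in input (SD, n = 3 each; edgeR adjusted p = 1.10e-15). endos (endosulfine), an inhibitor of the phosphatase PP2A, rose by 1.31 on the log2 scale. The kinase gene gwl (greatwall), which acts on endosulfine, fell at -0.31 (edgeR adjusted p = 0.00861), and the checkpoint kinase gene mei-41 fell at -1.07 (edgeR adjusted p = 0.00364). With a library left out, mei-41 ranged from -1.72, without Isha RIP replicate 3, to -0.79. Wee1, a kinase that holds Cdk1 off, is not among those named by the rule and was at a log2 fold change of 0.02 (edgeR adjusted p = 0.922). Myt1, of the same list and also named after its values were seen, fell at -0.68 (edgeR adjusted p = 0.0110).

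Of 13 APC/C subunits and ubiquitin-conjugating partners, 4 rose and 3 fell, at a median log2 fold change of -0.20. The ubiquitin-conjugating enzymes that serve the APC/C rose: CG8188, which RefSeq lists under the synonym Ube2S, was at 104 ± 12.5 CPM in Isha RIP and 35.7 ± 2.84 CPM in input (SD, n = 3 each; edgeR adjusted p = 9.22e-12), and vih was at 134 ± 1.19 CPM in Isha RIP and 74.0 ± 5.78 CPM in input (edgeR adjusted p = 1.96e-09). The core subunits shtd and ida fell by 1.35 and 1.14 on the log2 scale, and the call of ida was lost without input replicate 1 (-0.95). The core subunit APC4, named after its values were seen, also fell, at -0.67 (edgeR adjusted p = 0.00953). Other core subunits rose: Cdc27 was at 0.87 and CG17343, which RefSeq lists under the synonym Cdc26, at 0.62 (edgeR adjusted p = 6.46e-09 and 0.00479), both named after their values were seen. Of 5 tested genes of the SCF ligase, which removes G1 and S phase regulators, slmb, Cul1 and SkpA rose, at log2 fold changes of 1.11, 0.61 and 0.50 (SkpA was named after its values were seen). ago, the F-box protein for CycE, fell at -0.25 (edgeR adjusted p = 0.000675) and Roc1a fell at -0.24. The call of Roc1a was lost with a gene length offset (-0.02) and without Isha RIP replicate 3 or input replicate 2 (-0.22 and -0.20).

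Of 10 spindle checkpoint genes, 3 rose and 4 fell, at a median log2 fold change of 0.05. Bub1 and Mps1, both checkpoint kinases, rose by 0.69 and 1.14 on the log2 scale. Mps1 was uneven in input, at 12.2, 5.01 and 8.89 CPM, and its log2 fold change ranged from 0.87 to 1.47 with a library left out. Zw10 and Zwilch, parts of a kinetochore complex, fell by 1.34 and 1.89. Zwilch had only 11 to 30 counts in Isha RIP and ranged from -2.30 to -1.65 with a library left out. Of 10 mitotic kinase and passenger complex genes, 2 rose and 5 fell, at a median log2 fold change of -0.32. SAK, the kinase of centriole duplication, rose at 0.74 (edgeR adjusted p = 3.24e-05), while mei-38, a spindle protein, and Incenp fell by 1.61 and 0.82. Det, the fly Survivin, rose at 0.54 (edgeR adjusted p = 0.0242), but its call was lost without Isha RIP replicate 1 or 3 or input replicate 2 or 3 (0.39 to 0.52).

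Of 11 separase, securin and cohesin genes, 6 rose and 2 fell, at a median log2 fold change of 0.31. Nipped-B, the cohesin loader, was at 765 ± 29.7 CPM in Isha RIP and 255 ± 5.89 CPM in input (SD, n = 3 each; edgeR adjusted p = 3.48e-18), and the acetyltransferase gene san was at 92.9 ± 2.92 CPM in Isha RIP and 27.8 ± 0.330 CPM in input (edgeR adjusted p = 2.38e-13). The cohesin subunit SMC1 fell at -0.40 and the acetyltransferase eco at -0.39, a call that DESeq2 did not make (-0.35) and that was lost without input replicate 2 or 3 (-0.33 and -0.36). Of 12 genes of G1 to S transcription and its targets, 3 rose and 4 fell, at a median log2 fold change of 0.07. E2f1, the activating E2F factor, was at 532 ± 17.3 CPM in Isha RIP and 204 ± 8.16 CPM in input (edgeR adjusted p = 1.92e-16), and its partner Dp rose at a log2 fold change of 0.58. PCNA, the replication clamp, and Caf1-55, a histone chaperone subunit, fell by 0.95 and 1.26 on the log2 scale.

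Of 9 maternal cycle regulators, 3 rose and 4 fell, at a median log2 fold change of -0.09. me31B, a translational repressor, rose by 1.246 on the log2 scale, and nanos, which represses translation of CycB in the germ cell precursors, fell by 1.38. brat, a partner of nanos in repression, rose at 0.31 (edgeR adjusted p = 4.97e-06) but was at -0.06 with a gene length offset, and bel, an RNA helicase, fell at -0.29. pum, the RNA-binding partner of nanos, was named after its values were seen and was at 0.11 (edgeR adjusted p = 0.0424). Exons of 18 of the 36 genes that the rule took from these lists overlap another gene, so reads may be shared there.

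**Figure D5:**
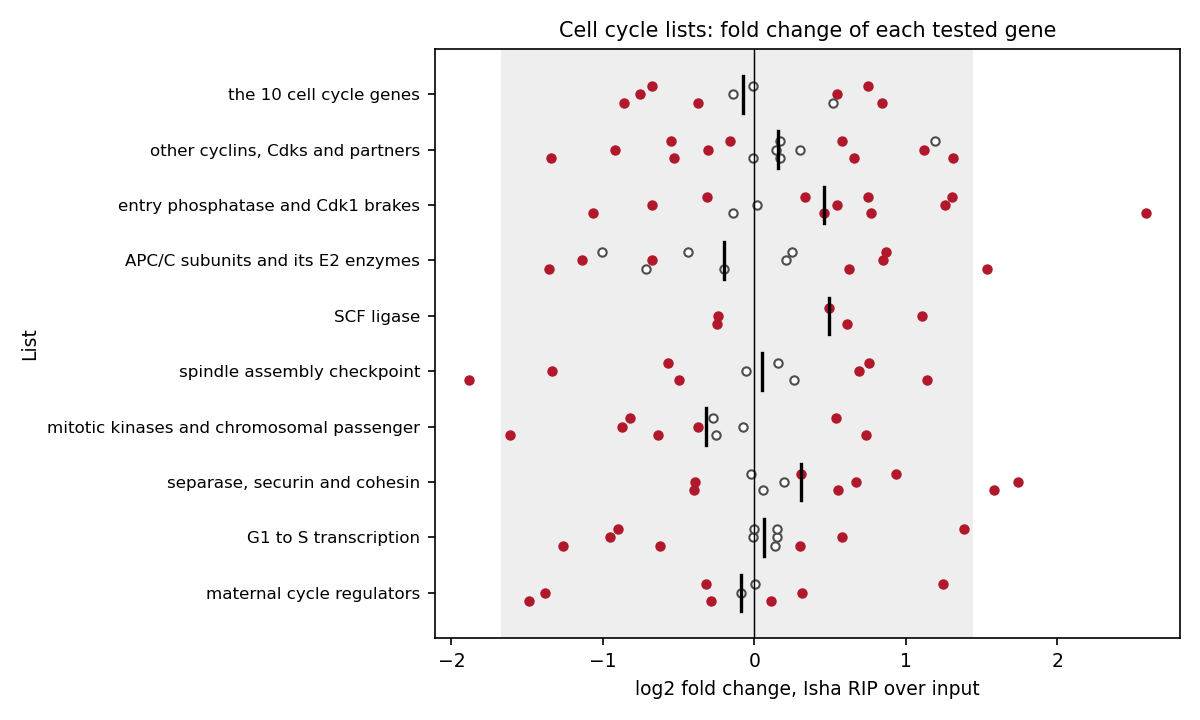
Log2 fold change of Isha RIP over input for every tested gene of the 10 cell cycle genes (top) and of 9 lists by role; filled points passed an adjusted p under 0.05, black ticks are medians and the shaded span holds the middle 90% of all tested genes. Medians of the lists lie between -0.32 and 0.50, and each list holds genes called in both directions.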

How the data were processed

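RIP and input RNA from embryo nuclear extract was fragmented, made into libraries and sequenced as 50 bp single-end reads, per the labels' protocols. The authors deposited raw read counts per gene, with exon coordinates and summed exon length (in bases, an other unit). The submitters' processing notes list build dm6, featureCounts, HISAT2 2.2.1, cutadapt 2.9, Subread 2.0.0, Picard 2.22.2, DESeq2 1.32.0 and R 4.1.0. For the annotation version, strand setting and handling of duplicate and multiply placed reads, nothing is stated, so reads of genes that overlap on opposite strands may be mixed or dropped.

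Symbols came from a RefSeq table of the same build, by coordinates for 17170 genes and by identifier for 16; 426 kept their identifier. Of 104 list names, 100 matched; lmg, Fbxw7, tpx2 and cup did not. CG17343 and CG8188 were reached through the synonyms Cdc26 and Ube2S. Groups and replicate numbers came from sample titles. Counts were filtered with filterByExpr (minimum count 10), scaled by TMM (factors 0.987 to 1.01) and tested with edgeR (quasi-likelihood F-test, 2-sided, no covariate) with Benjamini-Hochberg adjustment over 11764 genes and calls at an adjusted p under 0.05. A standard error is the absolute log2 fold change divided by the root of F. Ratios of 2 genes used a pseudocount of 0.5 counts. R 4.3.3, edgeR 4.0.16, limma 3.58.1, DESeq2 1.42.0 and scipy 1.17.1 were used. Changes are relative to the typical transcript, because scaling was within each library.

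The genes, lists and tests were chosen with earlier results of these data known. Named were all 10 genes, genes overlapping them and, per list, the 2 called genes of smallest adjusted p in each direction; other names are said to have been chosen later. Replicate libraries differed beyond counting noise in all 6 within-group pairs (chi-square over degrees of freedom 5.78 to 14.3). The labels do not say whether they stem from separate collections of embryos; the p-values then cover only library-to-library spread, possibly technical in origin. Floors cover counting error only. Counts for Isha RIP against input were simulated with 50 genes changed at each fold, all averaging at least 10 CPM, and the others unchanged. Recovery (11578 genes tested) was 28% for genes changed 1.25-fold, 64% for 1.5-fold, 90% for 2-fold and 100% for 4-fold. In that simulation 7 unchanged genes were called. The real comparison called 57.4% of tested genes, so these rates do not give its power or error. Genes averaging below 10 CPM over the libraries, such as twe, were not among those changed.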

Additional observations from a re-analysis of the deposited data

How the results depend on the processing

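Of the 10 cell cycle genes, CycA, CycB, CycB3, stg, polo, fzy and fzr kept their direction and their call under all 17 alternatives to the fit (DESeq2, limma-voom, other scalings and filters, coding genes only, a gene length offset, thinned input, a replicate block and each library left out), at log2 fold changes of 0.69 to 0.81 for CycA, -0.83 to -0.71 for CycB, 0.77 to 0.91 for CycB3, -0.90 to -0.82 for stg, 0.50 to 0.60 for polo, -0.73 to -0.47 for fzy and -0.42 to -0.29 for fzr. CycE passed with a gene length offset (-0.29) and upper-quartile factors (-0.19). twe passed with a gene length offset (0.67) and ranged from 0.36 to 0.73 with a library left out, passing without Isha RIP replicate 3. Cdk1 turned positive with DESeq2 (0.029), coding genes only (0.027), RLE size factors (0.030), thinned input (0.038), library totals (0.014), a strict count filter (0.0026) and the length offset (0.18), and ranged from -0.16 to 0.079 with a library left out. The causes were not tested. The median of all genes moved by 0.040 with DESeq2, 0.042 with RLE size factors, 0.039 with coding genes only and 0.027 with thinned input. It moved by 0.026 with library totals, 0.014 with the strict count filter and -0.042 with upper-quartile factors. The length offset moved the median of all genes by 0.10, relative to which CycE was at -0.39, twe at 0.57, Cdk1 at 0.07 and fzy at -0.58; brat turned to -0.061 with it, or -0.16 relative to that shift. A test against a 1.5-fold change called 1345 genes higher and 1703 lower, and 2 of the 10 genes lower, where the test against no change called 3176, 3573 and 4. Same-numbered RIP and input libraries did not deviate together (r across 7721 genes -0.036 to -0.0095, over genes, which are not independent replicates), so the numbers were not taken as pairs. With the replicate number as a block, 3065 genes were called higher and 3520 lower, and the same calls were made for the 10 genes (CycA at 0.75, CycB at -0.75, stg at -0.86). The 6 within-library ratios kept their direction with a pseudocount of 5 counts and without each library. RIP depth limits twe most, with 104 to 106 counts a library.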

Other observations

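Parts of complexes in the cell cycle lists were set side by side after their values were seen, with no test of the grouping. Of all tested genes 27.0% were called higher and 30.4% lower (edgeR). The PP2A holoenzyme that opposes Cdk1 rose in all 3 listed subunits: the catalytic subunit mts was at 342 ± 15.3 CPM in Isha RIP and 200.2 ± 5.31 CPM in input (SD, n = 3 each), the scaffold Pp2A-29B at 274 ± 9.18 CPM in Isha RIP and 188 ± 6.65 CPM in input, and the regulatory subunit tws at 65.4 ± 4.59 CPM in Isha RIP and 38.8 ± 4.99 CPM in input. The edgeR adjusted p was 2.32e-11 for mts, 1.51e-08 for Pp2A-29B and 4.17e-06 for tws. Of the kinetochore complex of rod, Zw10 and Zwilch, all 3 genes fell, with rod at 29.9 ± 4.26 CPM in Isha RIP and 44.6 ± 1.12 CPM in input (edgeR adjusted p = 0.000452). In cohesin, vtd, SMC3 and SA1 rose at log2 fold changes of 0.93, 0.55 and 0.31, and SMC1 fell at -0.40.

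Both subunits of ribonucleotide reductase, which makes the building blocks of DNA, fell. RnrL was at 28.8 ± 2.85 CPM in Isha RIP and 44.1 ± 0.590 CPM in input, and RnrS at 42.8 ± 7.47 CPM in Isha RIP and 80.4 ± 1.36 CPM in input (SD, n = 3 each; edgeR adjusted p = 0.000130 and 2.34e-07). In the chromosomal passenger complex, borr fell at a log2 fold change of -0.87 alongside Incenp at -0.82, while Det rose at 0.54 (edgeR adjusted p = 0.0242), a call lost when any 1 of 4 libraries was left out, and the kinase aurB was at -0.27 and did not pass (edgeR adjusted p = 0.0890). These are the same libraries and the same fit as above, so they carry no independent support for it.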
